A study of Mus musculus with 21 samples.

Results

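Activins and TGF-betas are secreted dimers of one growth factor superfamily, and the 10 genes described here encode ligands, an antagonist, receptors and a latency protein of their pathway: Inhba, Inhbb, Fst, Tgfb1, Tgfb2, Tgfb3, Tgfbr1, Acvr2a, Acvr2b and Ltbp1. They were chosen by name, as the rows with these symbols in a table of 20284 mouse genes, and all 10 symbols were found there. The choice was made with earlier results of these data known. In dermal condensate wells of embryonic back skin, Inhba, Fst, Ltbp1, Tgfbr1 and Acvr2b were higher than in fibroblast wells, whereas Inhbb, Tgfb2 and Tgfb3 were lower. Calls for Fst, Tgfbr1, Acvr2b and Tgfb3 were lost in some fits when the processing was varied. Within the condensate, Inhba rose and Fst fell from DC0 to DC2, and neither single step of Fst passed the test.

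The cells came from back skin of CD1 mouse embryos at embryonic day 15, when dermal fibroblasts gather into dermal condensates, the small clusters below the epidermis that direct the growth of a hair follicle. Live cells were sorted into wells by flow cytometry and their RNA molecules were counted by SORT-seq, a plate form of CEL-Seq2 that tags each molecule with a random barcode, the unique molecular identifier (UMI). Well names gave the populations: 1371 wells were named Fb (fibroblast), 149 DC0, 152 DC1 and 151 DC2. The 12 bulk samples of the series were not analysed here. No group carried a mutation or a treatment that the labels name. DC0, DC1 and DC2 wells are called condensate wells together. The labels neither define DC0 nor say which animals went into which of the 9 libraries, and p-values here reflect how much the libraries vary, which may be technical.

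Activin A and activin B are dimers of the chains encoded by Inhba and Inhbb, and follistatin, the product of Fst, binds activins and keeps them from their receptors. Activins bind the type II receptors encoded by Acvr2a and Acvr2b, while TGF-betas act through the type II receptor Tgfbr2 and the type I receptor Tgfbr1, and both branches pass the signal to SMAD2 and SMAD3. TGF-betas are secreted in a latent complex that LTBP1, a latent TGF-beta binding protein, ties to the matrix. In skin, activin and follistatin are known for roles in hair follicle formation, and TGF-beta2 is known to promote it.

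Libraries 1 to 7 held Fb wells beside 9 to 15 condensate wells each. Library 8 held over 120 wells each of DC0 and DC2, and library 9 held over 120 DC1 wells. In libraries 8 and 9 each population filled a run of wells with no other between. In libraries 1 to 7 the populations lay among each other. The series text names a clustering step behind the stages of the condensate. Whether the well names of libraries 1 to 7 follow those clusters is not stated. If they do, every gene took part in setting the groups there, and tests between those groups are not independent of it. Depth was 30731513 UMIs in Fb, 1924321 in DC0, 1927509 in DC1 and 1751098 in DC2 wells, with medians of 18509, 12773, 10469 and 8333 UMIs per well in that order. The DC2 wells of library 1 held only 2855 UMIs in all, and all 10 genes were at 0 there.

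The labelled cell types were checked on marker genes summed per library. The 6 fibroblast markers summed to 10943 to 16417 CPM (UMIs of a gene per 1000000 UMIs of the sum) in condensate sums and 43126 to 53526 CPM in Fb sums. The 7 condensate markers summed to 2005 to 4037 CPM in condensate sums and 126.1 to 165 CPM in Fb sums. Markers of other cells were scarcer: 29.7 to 408 CPM in condensate and 43.4 to 462 CPM in Fb sums for 6 keratinocyte markers, and 7.88 to 106 CPM in condensate and 4.48 to 11.8 CPM in Fb sums for 6 endothelial markers, with Emcn at 0 in condensate sums. Of 8 blood and immune markers 7 were in the table, at 4.67 to 35.2 CPM in condensate and 8.92 to 20.5 CPM in Fb sums, with Lyz2 and C1qa at 0 in condensate sums. The 5 pericyte markers gave 77.6 to 229 CPM in condensate and 130 to 171.5 CPM in Fb sums. For condensate and Fb sums, the melanocyte markers gave 9.33 to 41.4 and 13.1 to 247 CPM and the muscle markers 22.2 to 59.4 and 17.7 to 67.6 CPM, in that order of groups. Pax7 of the muscle list was at 0 in condensate sums. The part of these cells in the results below was not tested.

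The promoters of Inhba and Ltbp1, the pair with the largest rises in the condensate, and of Tgfb2, the ligand at 0 in the condensate wells of libraries 1 to 7, are shown so that their sequence can be set beside the values. They are RefSeq windows on GRCm38.p6, from 250 bases before to 50 after the start. Inhba lies at chr13:16011601-16011900 (plus strand), Ltbp1 at chr17:75005279-75005578 (plus strand) and Tgfb2 at chr1:186705940-186706239 (minus strand). Capitals mark motif letters found on either strand.
Inhba: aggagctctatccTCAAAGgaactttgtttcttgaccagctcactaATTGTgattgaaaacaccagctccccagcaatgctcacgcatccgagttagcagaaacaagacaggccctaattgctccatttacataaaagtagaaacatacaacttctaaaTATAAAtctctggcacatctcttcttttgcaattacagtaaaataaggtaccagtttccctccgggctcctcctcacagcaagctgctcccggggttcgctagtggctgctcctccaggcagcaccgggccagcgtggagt
Ltbp1: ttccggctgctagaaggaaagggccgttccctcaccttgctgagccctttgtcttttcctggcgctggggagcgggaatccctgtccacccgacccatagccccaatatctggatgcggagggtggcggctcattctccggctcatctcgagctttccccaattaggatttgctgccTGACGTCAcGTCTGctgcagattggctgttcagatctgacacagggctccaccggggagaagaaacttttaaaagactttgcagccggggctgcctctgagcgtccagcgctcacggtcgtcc
Tgfb2: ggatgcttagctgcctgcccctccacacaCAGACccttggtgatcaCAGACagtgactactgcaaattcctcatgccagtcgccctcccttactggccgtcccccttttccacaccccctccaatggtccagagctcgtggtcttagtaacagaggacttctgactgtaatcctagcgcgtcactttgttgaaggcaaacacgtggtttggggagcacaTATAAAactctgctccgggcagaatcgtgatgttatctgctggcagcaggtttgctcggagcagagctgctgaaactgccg

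The motifs searched, on both strands, were the TATA box TATAAA, the SMAD binding letters CAGAC, the TCF and LEF letters CTTTGA, the SOX core ACAAT and the cyclic AMP response element TGACGTCA. The Inhba window held TATAAA on its own strand, and CTTTGA and ACAAT on the opposite strand, where they read TCAAAG and ATTGT in the printed line. The Tgfb2 window held TATAAA once and CAGAC at 2 places. The printed Ltbp1 window held TGACGTCA and, 1 base further, CAGAC on the opposite strand as GTCTG. A second Ltbp1 window of the table, at chr17:75178531-75178830 and not printed, held CAGAC at 2 places and ACAAT once, but not TGACGTCA. Of all 32851 windows in the table, 13.6% held TATAAA, 49.6% CAGAC, 16.0% CTTTGA, 31.0% ACAAT and 1.79% TGACGTCA. The table had windows for 8 of the 10 genes.

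Condensate wells were set against Fb wells of the same library to see which pathway genes differ once a condensate forms. DC0, DC1 and DC2 wells were summed in each library, and edgeR's quasi-likelihood test was run over 9640 genes in the 6 libraries where both kinds had 10 wells or more. Of the 9 pathway genes tested, 8 passed an adjusted p of 0.05, beside 23.6% of all genes tested. Of these, 5 were higher, beside 10.4% of all genes, and 3 were lower, beside 13.2%. Because the genes were chosen with earlier results of these data known, such shares are not a test of the set. Tgfb1 had too few UMIs for the test. Fewer cells and less RNA per cell cannot be told apart in such sums.

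Among the ligands, Inhba was high in the condensate and the other tested ligands were low. Inhba, at 13:16011851-16031621 on the plus strand of GRCm38, had 96.5, 202 and 286 CPM (lowest, median and highest of 7 libraries) in condensate wells, against 21.1, 30.5 and 45.1 CPM in Fb wells. The groups did not overlap, and all 7 libraries had more Inhba in the condensate. The log2 fold change was 2.35 (SE 0.209, adjusted p = 6.10e-12, edgeR).

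Inhbb, the chain of activin B, had 0, 9.33 and 35.2 CPM in condensate wells, against 43.8, 45.1 and 58.2 CPM in Fb wells (lowest, median and highest). It fell by 2.20 on the log2 scale (SE 0.389, adjusted p = 2.43e-05, edgeR), again without overlap. The 2 activin chains thus differed in opposite directions between the same wells. The condensate values rest on few molecules, 17 UMIs in the 7 libraries against 1442 UMIs in Fb wells.

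Tgfb2 was at 0 UMIs in the condensate wells of all 7 libraries, out of 1331447 UMIs, against 597 UMIs in Fb wells (14.2, 18.9 and 26.3 CPM as lowest, median and highest). With 3 UMIs over the whole group as the limit that a count of 0 allows, it was at least 8.62-fold lower in the condensate (adjusted p = 4.64e-05, edgeR). In the deeper libraries it was present but rare, with 5 UMIs (3.39 CPM) in DC0 and 3 UMIs (2.21 CPM) in DC2 wells of library 8 and 12 UMIs (8.35 CPM) in DC1 wells of library 9. None of these reached the lowest Fb sum.

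Tgfb3 had 0, 3.76 and 22.3 CPM in condensate wells, against 17.2, 21.6 and 27.2 CPM in Fb wells. The ranges overlapped, but the condensate sum was lower within each of the 7 libraries. It fell by 1.85 on the log2 scale (SE 0.575, adjusted p = 0.0151, edgeR), with an adjusted p of 0.177 without library 5 (log2 difference -1.17). Outside the sequencing run that 4 libraries shared, the log2 difference was -1.32 (adjusted p = 0.504, edgeR). The gene Ttll5 overlaps Tgfb3 on the opposite strand, and whether the counting used strand is not given in the sources used here. Tgfb1 was near the detection limit in both groups, with 4 UMIs in condensate wells and 69 in Fb wells. Its highest level was 5.25 CPM in a condensate sum and 5.9 CPM in an Fb sum.

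Fst, the activin antagonist, had 31.8, 125.99 and 387 CPM in condensate wells, against 28.1, 41.5 and 63.1 CPM in Fb wells. It was higher in the condensate in 6 of 7 libraries, with a log2 fold change of 1.50 (SE 0.245, adjusted p = 6.30e-06, edgeR). With wells thinned to 3000 UMIs it was 1.25, with an adjusted p of 0.070 (edgeR). The spread between condensate sums was wide: libraries 2 and 3 had 387 and 282.2 CPM, while libraries 1, 5 and 7 lay at 33.2, 49.9 and 31.8 CPM.

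Of the receptors, Tgfbr1 and Acvr2b passed the test and Acvr2a did not. Tgfbr1, the TGF-beta type I receptor, had 118.2, 138 and 211 CPM in condensate wells, against 62.3, 73.8 and 90.4 CPM in Fb wells, with no overlap. Its log2 fold change was 0.86 (SE 0.180, adjusted p = 0.000276, edgeR). The call was lost in the libraries outside the shared sequencing run (0.72, adjusted p = 0.175) and with wells thinned to 3000 UMIs (0.54, adjusted p = 0.511, edgeR).

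Acvr2b had 0, 26.3 and 30.1 CPM in condensate wells, against 4.21, 7.62 and 12.3 CPM in Fb wells, a log2 fold change of 1.36 (SE 0.422, adjusted p = 0.0144, edgeR). The 7 libraries hold 30 condensate UMIs of it, and without library 5 the adjusted p was 0.0882. In the libraries outside the shared sequencing run, the log2 difference was 1.11 (adjusted p = 0.614, edgeR). Acvr2a, the other activin type II receptor, had 11.1, 18.7 and 29.7 CPM in condensate wells and 13.2, 17.4 and 21.5 CPM in Fb wells. Its log2 difference was 0.11 (SE 0.400, adjusted p = 0.887, edgeR), and Orc4 overlaps it on the opposite strand.

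Ltbp1 showed the tightest difference of the 10 genes, with the smallest standard error. It had 191, 360 and 563 CPM in condensate wells, against 59.5, 70.6 and 78.4 CPM in Fb wells, so the lowest condensate sum was above the highest Fb sum. The log2 fold change was 2.37 (SE 0.148, adjusted p = 2.40e-16, edgeR).

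**Figure D1:**
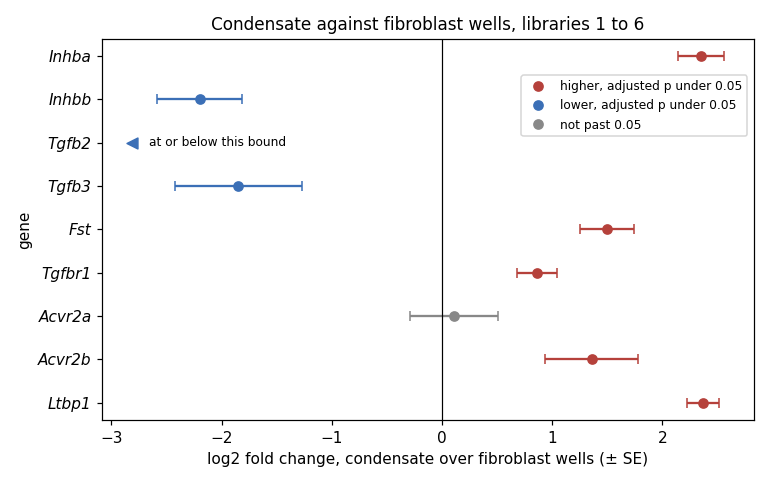
Log2 fold change of condensate over fibroblast wells for the 9 genes tested (y axis), from edgeR over libraries 1 to 6, with bars of 1 SE on the x axis; for Tgfb2, at 0 UMIs in the condensate, the arrow marks the bound from 3 UMIs (at least 7.03-fold lower in these 6 libraries). Inhba, Ltbp1, Fst, Acvr2b and Tgfbr1 lie right of 0, Inhbb, Tgfb2 and Tgfb3 left of it, and Acvr2a at 0.11.

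As a check that uses no count model, differences in log2(CPM + 10) between condensate and Fb wells of the same library were tested with exact two-sided sign-flip permutation. Inhba, Tgfbr1 and Ltbp1 were higher in 7 of 7 libraries and Inhbb, Tgfb2 and Tgfb3 lower in 7 of 7, each with an exact p of 0.0156. That is the smallest p that 7 libraries can give, and it was 0.0729 after adjustment over all 70 such tests. Fst was higher in 6 of 7 libraries with an exact p of 0.0312 and Acvr2b in 5 of 7 with an exact p of 0.0781, adjusted to 0.109 and 0.203.

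The stages were then compared, to ask at which of them each gene changes. All 4 populations were fitted in one edgeR model over libraries 1 to 8, on the 2069 genes that passed the filter on low counts. Inhba, Fst, Ltbp1 and Tgfbr1 were tested there, and the other 6 genes fell below the filter. The DC0, DC1 and DC2 sums of libraries 1 to 7 come from 2 to 8 wells each, their Fb sums from 132 to 220 and the sums of library 8 from over 120.

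Inhba was on average low in Fb and DC0 wells, higher in DC1 and highest in DC2. Its level was 32.6 ± 8.38 CPM in Fb (SD, n = 7 libraries), 21.4 ± 15.4 in DC0, 132 ± 80.4 in DC1 and 391 ± 230 in DC2 wells (n = 8 each). DC2 wells had 0, 187, 581, 230, 528, 652, 559 and 391 CPM in libraries 1 to 8, and the value of 0 belongs to the library with 2855 UMIs. No DC0 sum was above 39.9 CPM, and the highest Fb sum was 45.1 CPM. DC1 wells of libraries 3 and 4 had 25.83 and 19.45 CPM, below the 39.94 and 25.44 CPM of the Fb wells there.

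Against Fb wells, the log2 difference of Inhba was -0.74 in DC0 (SE 0.446, adjusted p = 0.245, edgeR), 1.80 in DC1 (SE 0.333, adjusted p = 4.55e-05) and 3.73 in DC2 (SE 0.287, adjusted p = 5.65e-13). One step at a time, it rose by 2.54 in DC1 over DC0 (SE 0.483, adjusted p = 0.00227, edgeR) and by 1.93 in DC2 over DC1 (SE 0.339, adjusted p = 0.00109). Few genes passed at these steps, 1.16% of the genes tested for DC1 over DC0 and 2.46% for DC2 over DC1. With at least 5 wells per sum, both steps lost the call, with adjusted p of 0.241 and 0.126 (edgeR) and log2 differences of 2.55 and 1.82. That DC0 did not pass against Fb does not show equal levels of Inhba. DC0 was lower in 5 of 7 libraries (exact p = 0.0938, sign-flip). The DC0 sum of library 8 had 13.6 CPM, below the lowest Fb sum of 21.1 CPM. By sign-flip permutation, Inhba was higher in 5 of 7 libraries in DC1 over Fb, DC1 over DC0 and DC2 over DC1. The exact p was 0.0625, 0.0625 and 0.25 (sign-flip). It was higher in 6 of 7 in DC2 over Fb and 7 of 8 in DC2 over DC0 (exact p = 0.0312 and 0.0156, sign-flip).

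Fst ran the other way. Its level was 43.8 ± 14.03 CPM in Fb, 273.99 ± 299 in DC0, 92.3 ± 61.8 in DC1 and 77.98 ± 85.7 in DC2 wells (SD, n = 7, 8, 8 and 8 libraries). DC0 wells ranged widely, with 0, 676, 800, 225, 88.8, 150, 30.8 and 221.6 CPM in libraries 1 to 8. The log2 difference from Fb was 2.18 in DC0 (SE 0.400, adjusted p = 5.02e-05, edgeR), 0.66 in DC1 (SE 0.487, adjusted p = 0.323) and 0.24 in DC2 (SE 0.501, adjusted p = 0.738). Its single steps did not pass, with log2 differences of -1.52 in DC1 over DC0 (SE 0.508, adjusted p = 0.193, edgeR) and -0.42 in DC2 over DC1 (SE 0.613, adjusted p = 0.807). In the sign-flip permutation, Fst was higher in DC0 than in Fb wells in 6 of 7 libraries (exact p = 0.141, adjusted p = 0.308). Between DC2 and DC0 that test gave an exact p of 0.0156 (adjusted p = 0.0729). In DC2 over DC0 Fst fell by 1.94 (SE 0.460, adjusted p = 0.00308, edgeR), lower in 7 of 8 libraries and at 0 in both groups in library 1. The call was lost within the 4 libraries of the shared sequencing run (-2.25, adjusted p = 0.0684) and within the rest (-1.59, adjusted p = 0.161, edgeR), and the log2 difference lay between these values in all 19 alternative fits.

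On average, Ltbp1 was above Fb at every stage. It had 68.6 ± 7.68 CPM in Fb, 462 ± 353.6 in DC0, 329 ± 65.4 in DC1 and 293 ± 149 in DC2 wells (SD). Its log2 difference from Fb was 2.31 in DC0 (SE 0.296, adjusted p = 1.08e-07, edgeR), 2.18 in DC1 (SE 0.298, adjusted p = 3.11e-07) and 2.28 in DC2 (SE 0.305, adjusted p = 1.62e-07). Between DC2 and DC0 it differed by -0.03 (SE 0.308, adjusted p = 0.968, edgeR). In library 7, DC0 wells had 46.21 CPM and Fb wells 61.55 CPM, and DC2 wells of library 1 had 0 CPM. By sign-flip permutation against Fb, Ltbp1 was higher in 6 of 7 libraries in DC0, 7 of 7 in DC1 and 6 of 7 in DC2. The adjusted p of that permutation test was 0.109, 0.0729 and 0.292.

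Tgfbr1 was highest in DC2. It had 73.9 ± 11.6 CPM in Fb, 112 ± 76.7 in DC0, 109 ± 47.3 in DC1 and 212 ± 119 in DC2 wells (SD). Its log2 difference from Fb was 1.59 in DC2 (SE 0.289, adjusted p = 2.83e-05, edgeR), and 0.48 in DC0 and 0.45 in DC1 (adjusted p = 0.297 and 0.307). Outside the shared sequencing run the call in DC2 over Fb was lost (adjusted p = 0.0667, edgeR). In DC2 over DC0 Tgfbr1 rose by 1.11 (SE 0.320, adjusted p = 0.0137, edgeR). That call was lost in 6 of 19 alternative fits, among them those without library 5 and without library 8. The sign-flip test found Tgfbr1 higher in 6 of 7 libraries in DC2 over Fb and 7 of 8 in DC2 over DC0. Its exact p was 0.25 and 0.367 in that order.

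Of these 4 genes, 2 passed in DC0 over Fb, 2 in DC1 over Fb and 3 in DC2 over Fb, beside 26.5%, 32.6% and 44.8% of all genes tested. In DC2 over DC0 3 of 4 passed, beside 17.6% of all genes.

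**Figure D2:**
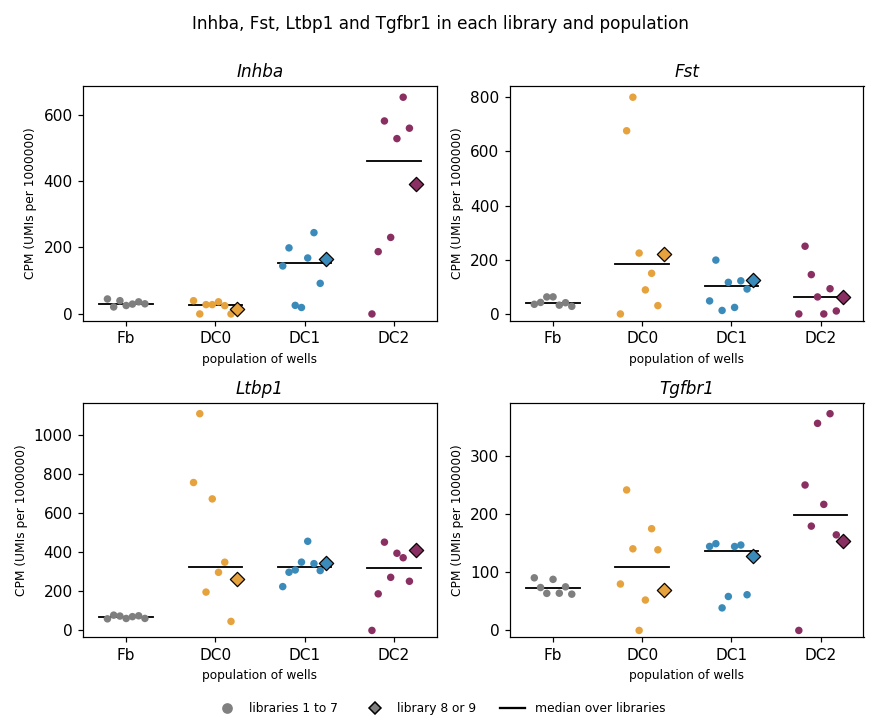
CPM (y axis) of Inhba, Fst, Ltbp1 and Tgfbr1 in Fb, DC0, DC1 and DC2 wells (x axis), with 1 circle for each of libraries 1 to 7, a diamond for library 8 or 9 and a line at the median. Inhba climbs over the stages to a median of 459.5 CPM in DC2, Fst is highest in DC0, and the median of Ltbp1 is above Fb at each stage with much scatter in DC0.

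Library 8 holds DC0 and DC2 wells side by side on 1 plate in blocks, and gives the most molecules for these stages. With 1 sum per stage there is no replicate test, and its intervals (95%, exact) cover counting error only. Inhba had 391 CPM in DC2 and 13.6 CPM in DC0 wells, from 532 and 20 UMIs, a ratio of 28.9 (18.5 to 47.7). Fst had 61.8 CPM in DC2 and 221.6 CPM in DC0 wells, a ratio of 0.279 (0.217 to 0.355). Tgfbr1 had 154.5 CPM in DC2 and 69.8 CPM in DC0 wells, a ratio of 2.21 (1.74 to 2.83). These 3 ratios were close to those over libraries 1 to 7 pooled: 18.7 (10.5 to 36.8) for Inhba, 0.286 (0.179 to 0.444) for Fst and 2.24 (1.53 to 3.31) for Tgfbr1. For Ltbp1 the ratio was 1.55 (1.36 to 1.77) in library 8, and 1.03 (0.81 to 1.3) in libraries 1 to 7. In DC1 wells of library 9, the levels were 165 CPM for Inhba, 123.9 for Fst, 344.5 for Ltbp1 and 129 for Tgfbr1.

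The 6 genes under the filter were fitted without it, over 18809 genes. Inhbb was lower than in Fb at each stage, with log2 differences of -1.57 in DC0 (adjusted p = 0.0214, edgeR), -2.81 in DC1 (adjusted p = 0.000226) and -2.57 in DC2 (adjusted p = 8.38e-05). Tgfb2 passed at all 3 stages. Tgfb3 passed in DC1 (-2.12, adjusted p = 0.0346, edgeR) and DC2 (-2.25, adjusted p = 0.00656), with an adjusted p of 0.0706 in DC0. With all 10 genes in the fit, 4 passed in DC0, 5 in DC1 and 6 in DC2, beside 8.38%, 8.95% and 15.6% of all genes. Without the filter the median log2 difference over all genes was -0.52 in DC0, -0.47 in DC1 and -0.55 in DC2, and the values above should be read against it.

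Acvr2a, Acvr2b and Tgfb1 passed at none of the 3 stages in that fit. Acvr2b had log2 differences from Fb of 1.00 in DC0, 1.07 in DC1 and 0.73 in DC2, with adjusted p of 0.276, 0.254 and 0.484 (edgeR). Acvr2a averaged 17.5 ± 2.67 CPM in Fb, 4.67 ± 6.52 in DC0, 24.2 ± 23.5 in DC1 and 23.2 ± 24.6 in DC2 wells (SD). The sums of single stages hold few of these molecules, at most 40 UMIs for Acvr2a and 36 for Acvr2b.

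**Figure D3:**
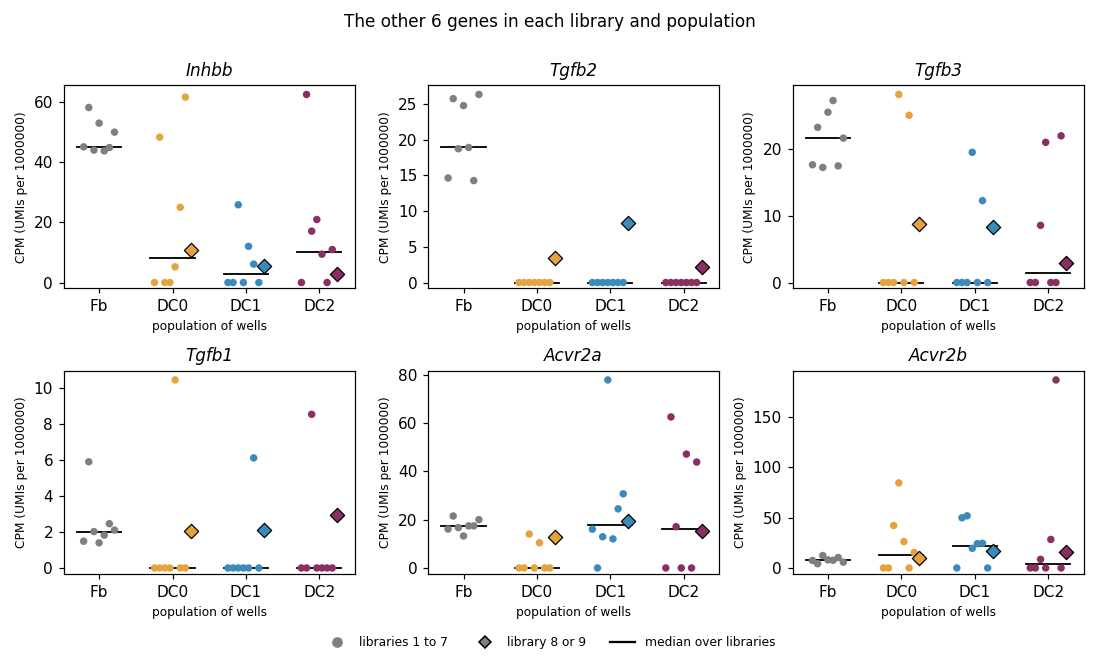
CPM (y axis) of Inhbb, Tgfb2, Tgfb3, Tgfb1, Acvr2a and Acvr2b in Fb, DC0, DC1 and DC2 wells (x axis), with 1 circle for each of libraries 1 to 7, a diamond for library 8 or 9 and a line at the median. Tgfb2 is at 0 in every DC0, DC1 and DC2 sum of libraries 1 to 7, and single high points such as Acvr2b at 186 CPM in DC2 wells rest on 1 to 4 UMIs.

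Because follistatin binds activins, the UMIs of Inhba were also set against the sum of Inhba and Fst UMIs in each population. Over libraries 1 to 7 the Inhba share was 43.8% in Fb (95% exact binomial interval 41.8 to 45.8), 10.3% in DC0 (5.46 to 17.4), 65.2% in DC1 (55.6 to 73.9) and 88.3% in DC2 wells (83.3 to 92.2). Library 8 gave 5.76% in DC0 (3.56 to 8.76) and 86.4% in DC2 wells (83.4 to 89.0), and library 9 gave 57.1% in DC1 wells (52.2 to 61.9). These pooled shares were below Fb in DC0 and above it in DC1 and DC2. Library 6 gave 60 of the 112 UMIs behind the pooled DC1 share, and DC1 was below the Fb wells of its own library in library 4 (14.3% in DC1 and 28.7% in Fb wells) and library 7 (50% in DC1 and 52.0% in Fb wells). Fb libraries alone spread over 28.7 to 55.8%, more than their counting error.

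**Figure D4:**
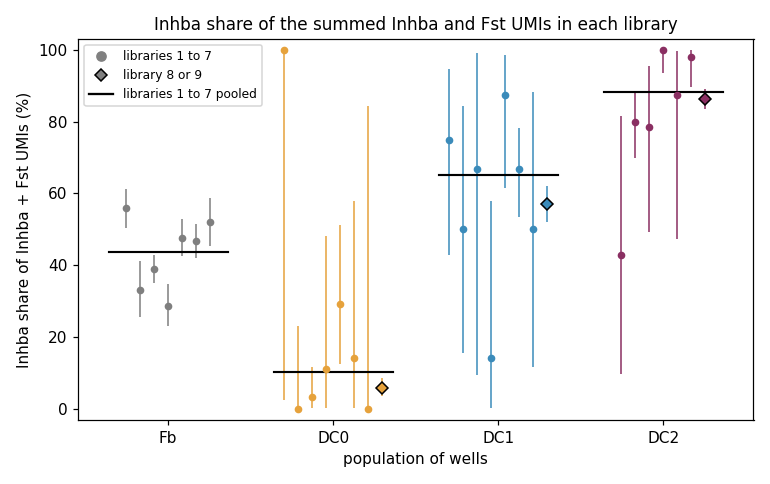
Inhba UMIs as a percentage of Inhba and Fst UMIs together (y axis) in Fb, DC0, DC1 and DC2 wells (x axis), with 1 point for each library, bars for the 95% exact binomial interval and a line for libraries 1 to 7 pooled. The pooled share is 43.8% in Fb, 10.3% in DC0, 65.2% in DC1 and 88.3% in DC2 wells, and the point at 100% in DC0 is a single UMI.

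Single wells were compared after thinning each to 3000 UMIs, which left 1155 Fb, 115 DC0 and 87 DC2 wells and all but 13 of the 152 DC1 wells. At least 1 Inhba UMI was found in 8.66% of Fb, 3.48% of DC0, 36.7% of DC1 and 48.3% of DC2 wells. For Fst the shares were 8.31% of Fb, 34.8% of DC0, 20.1% of DC1 and 12.6% of DC2 wells. Ltbp1 was found in 16.5% of Fb, 53.0% of DC0, 51.8% of DC1 and 59.8% of DC2 wells. Tgfbr1 was found in 19.2% of Fb, 14.8% of DC0, 28.8% of DC1 and 33.3% of DC2 wells. Inhba and Fst kept the order of their CPM over DC0, DC1 and DC2, whereas Ltbp1 was most frequent in DC2 and Tgfbr1 less frequent in DC0 than in Fb wells, unlike their mean CPM. Library 8 gave 94 of these DC0 and 65 of these DC2 wells and library 9 gave 114 of these DC1 wells, while the Fb wells come from libraries 1 to 7, so the share of each stage rests mostly on 1 library.

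No DC0 well had both Inhba and Fst at that depth: 4 had Inhba alone and 40 had Fst alone. In DC1, 10 wells had both, 41 Inhba alone and 18 Fst alone. In DC2, 6 had both, 36 Inhba alone and 5 Fst alone. Without thinning, 8 of the 115 DC0, 36 of those DC1 and 24 of the 87 DC2 wells had both. Whether these counts depart from what independent genes would give was not tested. The wells named for spike-ins had a median of 431 UMIs, and Inhba and Fst were each found in 2 of them (1.39%).

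**Figure D5:**
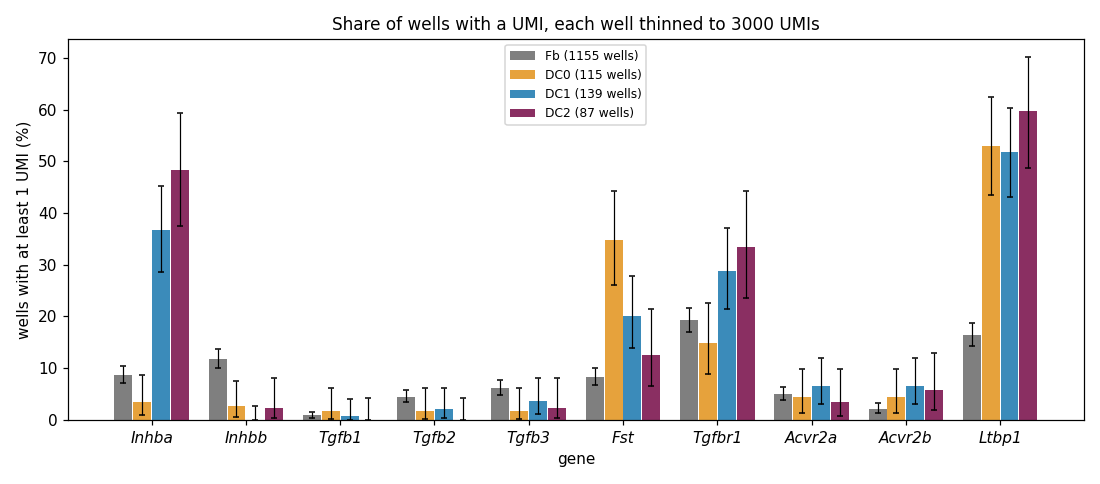
Percentage of Fb, DC0, DC1 and DC2 wells with at least 1 UMI of each gene (y axis) for the 10 genes (x axis), each well thinned to 3000 UMIs, with 95% exact binomial intervals that cover counting error only. Inhba reaches 48.3% in DC2, Fst peaks at 34.8% in DC0, Ltbp1 is between 51.8% and 59.8% in the 3 condensate populations, and Tgfb1, Tgfb2 and Tgfb3 stay at or under 6.15% in all 4.

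The genes most like each tested gene were found by Pearson's r of log2(CPM + 10) over the 30 sums of library and population, which share libraries and depth. For Inhba they were Rspo3 (r = 0.838), a secreted enhancer of WNT signalling, Adamts15 (0.832), a matrix protease, and Cxcr4 (0.826), a chemokine receptor. Rspo3 averaged 45.8 CPM in Fb, 112 in DC0, 195 in DC1 and 449 in DC2 wells. For Ltbp1 they were Pik3r1 (0.930), a regulatory subunit of PI3 kinase, Dclk1 (0.915) and the semaphorin Sema6a (0.912). For Tgfbr1 they were Klf4 (0.816), Txndc15 (0.813) and Ndufa6 (0.800). Fst had no gene as close, the nearest being Srf (0.636), Rplp0 and Rpl6 (0.635 each). With a pseudocount of 1 in place of 10, 6 of these 12 left the 3 nearest.

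Other genes of the pathway were taken from 5 lists of 66 genes that share none with the 10. The lists, too, were chosen with earlier results of these data known. Of 8 other receptors and co-receptors, 4 could be tested in condensate over Fb wells. Their log2 differences were -0.03 for Tgfbr2, the TGF-beta type II receptor, -0.07 for Tgfbr3, -0.01 for Acvr1 and -0.46 for Eng. Of these 4, 0 passed by edgeR (0 at an unadjusted p under 0.05) and 0 by DESeq2. By stage, Tgfbr2 was lower than Fb in DC0 (-0.93, SE 0.294, adjusted p = 0.0156, edgeR) and higher in DC2 than in DC0 (1.52, SE 0.300, adjusted p = 0.000398), the same direction as Tgfbr1. Of 10 other ligands and antagonists, 3 could be tested and 1 fell, Gdf10 (-2.33, SE 0.655, adjusted p = 0.00683, edgeR), named because it was alone.

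Of 14 genes of the latent complex and its activation, 10 could be tested, with 1 higher and 4 lower in the condensate (10.4% and 13.2% over all genes tested) and a median log2 difference of -0.47, against -0.03 over all genes. The furthest was Thbs1, a matrix glycoprotein known to activate latent TGF-beta, with 70.8 ± 55.6 CPM in condensate and 503 ± 274.5 CPM in Fb wells (SD, n = 6). It fell by 3.13 on the log2 scale (SE 0.228, adjusted p = 1.93e-14, edgeR), and by 3.46 in DC2 against DC0 (SE 0.518, adjusted p = 7.29e-06). The other calls, named because they were few, were the fibrillins Fbn1 (-1.27) and Fbn2 (-1.19), to which LTBPs bind, Emilin1 (-0.77) and the protease Furin (0.67). Neither of the tested relatives of Ltbp1 passed, Ltbp3 (-0.37, adjusted p = 0.402) and Ltbp4 (0.18, adjusted p = 0.57), and their difference from Ltbp1 was not tested.

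Of 14 transducers and brakes, 12 could be tested, and 6 were higher and 1 lower, beside the same 10.4% and 13.2% over all genes, with a median log2 difference of 0.67. Smad3, which carries the signal of both branches to the nucleus, had 166 ± 58.7 CPM in condensate and 39.2 ± 8.20 CPM in Fb wells (SD, n = 6), a log2 fold change of 1.88 (SE 0.205, adjusted p = 1.21e-09, edgeR). The inhibitory Smad7 (1.73, adjusted p = 3.25e-05) and the repressor Tgif1 (1.69, adjusted p = 5.23e-06) also rose. The sole gene that fell was the corepressor Ski (by 1.03, adjusted p = 3.87e-05, edgeR), while its relative Skil, named after its value was seen, rose by 1.27 (adjusted p = 0.00921).

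Of 20 listed genes known to be induced by TGF-beta, 18 could be tested. Of these, 1 was higher and 11 were lower (10.4% and 13.2% over all genes), with a median log2 difference of -1.39. SMAD-induced brakes such as Pmepa1 were counted with the transducers and brakes instead, of which 6 were higher and 1 lower. Pmepa1 rose by 0.46 (adjusted p = 0.0419, edgeR), and Smad7 and Skil rose as given above. Lox, a collagen cross-linking enzyme, had 9.27 ± 13.7 CPM in condensate and 147 ± 20.01 CPM in Fb wells (SD, n = 6), and fell by 5.13 on the log2 scale (SE 0.410, adjusted p = 3.09e-13, edgeR). Tgfbi fell by 3.85 (adjusted p = 1.28e-09, edgeR) and Col1a1 by 2.43 (adjusted p = 4.45e-21). The sole rise on this list was Cdkn1a, the cell cycle inhibitor p21 (log2 fold change 3.68, SE 0.184, adjusted p = 2.03e-19, edgeR). It had 697 ± 175 CPM in condensate and 49.8 ± 17.7 CPM in Fb wells. Col1a1, Col1a2 and Col3a1 of this list are also fibroblast markers, which were lower in condensate sums as given above. The other 8 genes that fell are not on that list of 6 markers, but whether their fall goes with fibroblast identity was not tested.

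By stage, the listed genes with the largest changes against Fb were much the same names at each stage. Cdkn1a rose by 4.06 in DC0, 3.23 in DC1 and 2.79 in DC2 on the log2 scale, and Smad3 by 1.76, 1.78 and 1.65 (adjusted p at most 7.71e-05, edgeR). Further rises were Pmepa1, a SMAD-induced brake, in DC1 (0.70), and Tsc22d1 (0.90) and Bmp1 (0.76) in DC2. Lox fell, with log2 differences of -4.89 in DC0, -5.32 in DC1 and -5.25 in DC2, and so did Thbs1 with -2.17, -3.91 and -5.64. Col1a1 and Col1a2 fell by 2.23 to 2.68 at the 3 stages, and Postn by 2.91 in DC0. Between DC2 and DC0, Tgfbr2, Emilin1 (1.36), Tsc22d1 (0.97) and Fbn1 (0.78) rose most, and Thbs1, Cyr61 (-1.44), Cdkn1a (-1.27) and Fbn2 (-0.63) fell most.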

How the data were processed

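The values that the authors deposited for the single-cell libraries are expected counts: distinct UMIs per gene and well, adjusted for chance collisions among 4096 barcodes (0 of 7480233 values above 0 differed from that formula by more than 0.005). The design had assumed whole counts. Values were rounded, which changed 13.5% of them, and the rounded sum was 101.2% of the whole UMIs recovered. The submitters' processing notes list mm10 as build and, in no stated order or role, BWA 0.6.2-r126, Cufflinks 2.1.1, Bowtie2 and TopHat2 2.0.3. Counting across strands or gene copies is not given in the sources used here.

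UMIs were summed per library and population, leaving out 86 spike-in rows, and tested with edgeR 4.0.16 (glmQLFit, glmQLFTest, TMM, filterByExpr, Benjamini-Hochberg at 0.05 over all genes) in R 4.3.3 with limma 3.58.1. The alternative tool was DESeq2 1.42.0. Sums needed at least 10 wells (condensate fit) or 2 (stage fit). The library was a block, because its wells share a plate. Deviations from the group means correlated within each of libraries 1 to 6 (r 0.156 to 0.444, 2829 genes). Intervals (95%, exact) came from scipy 1.17.1 with Python 3.11.15, numpy 2.4.6 and pandas 2.3.3. No doublet caller was run on the sorted wells. The statistics were tested on simulated data. A further list of cell type markers is not reported here. Locations are from GENCODE on GRCm38.

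The 10 genes and the pathway lists were chosen with earlier results of these data known. Named were all 10 genes, in each comparison the 4 listed genes with the largest called rise and the 4 with the largest called fall, and the 3 genes most like each tested gene. Alternatives were DESeq2, RLE scaling, no filter, no block, each library left out, sequencing runs apart, 5 wells per sum, thinning, whole UMIs, and library 9 added. A fit of library 9 without the block and a fit of libraries 1 to 7 were chosen after seeing the data.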

Additional observations from a re-analysis of the deposited data

Results flagged for a closer look

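Of 50 sets of library values (10 genes in 5 groups of wells), 11 had a library whose gap to the next was large against the range. The rule nominally flags about 1 in 20 by chance. In a set at 0 in all libraries but 1 the gap is the whole range, so the 11 cannot be set against that rate. Of the 11 flagged values, 10 rest on 1 to 12 UMIs. Tgfb1 was at 10.5 CPM in DC0 wells of library 5, 6.11 CPM in DC1 wells of library 6 and 8.54 CPM in DC2 wells of library 3. Among condensate wells, Tgfb2 was above 0 only in library 8, with 3.39 CPM in DC0 and 2.21 CPM in DC2 wells, and in library 9, with 8.35 CPM in DC1 wells, the libraries with over 120 wells per population. Inhbb was at 25.8 CPM in DC1 wells of library 3 and 62.5 CPM in DC2 wells of library 2. Acvr2a was at 77.8 CPM in DC1 wells of library 4, and Acvr2b at 186.3 CPM in DC2 wells of library 6. In Fb wells Tgfb1 was at 5.9 CPM in library 2, from 14 UMIs, against 2.46 CPM in the next library.

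In the wells named for spike-ins, Ltbp1 had 8 UMIs among 72455, more than the 3 that a count of 0 allows. Its share of those wells was 5.56%.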

How the results depend on the processing

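Each fit was repeated under the alternatives, and of 580 member fold changes 558 kept their side of the threshold, 19 lost and 3 gained the call and 0 reversed. In condensate over Fb, Inhba, Ltbp1, Inhbb and Tgfb2 kept their call in each of these fits that tested them. So did Inhba in DC1 and DC2 over Fb and in DC2 over DC0, Ltbp1 at each stage over Fb and Fst in DC0 over Fb. The sign-flip tests are apart from this count. The paired design is the main one. Without the block ("no replicate block") 2423 genes passed in condensate over Fb (8 of the 9 members tested), and the calls of the 10 genes did not change in that fit.

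Genes called changed most with depth and libraries, and the cause was not tested beyond fewer genes or samples. The number of genes tested differs between these fits, so their member counts are not set against a share of all genes. With wells thinned to 3000 UMIs, 559 genes passed in condensate over Fb (2 of the 4 members tested), 81 in DC0 over Fb, 92 in DC1 over Fb, 121 in DC2 over Fb, 4 in DC1 over DC0, 5 in DC2 over DC1 and 65 in DC2 over DC0, with 0 members tested in these 6. Within libraries outside the shared run, 1035 genes passed in condensate over Fb (5 of the 9 members tested). The other 6 comparisons, in the same order, gave 207, 207 (1 member), 277 (1 member), 3 (0 members), 0 (0 members) and 48 (0 members). In DC2 over DC1, 99 of 1213 genes had an unadjusted p under 0.05 (edgeR). Within the shared run, 2 genes (0 members) passed in DC1 over DC0, 16 in DC2 over DC1 and 150 (1 member) in DC2 over DC0. With 5 wells per sum, 2 genes passed in DC1 over DC0 and 6 in DC2 over DC1, 0 members in both.

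Without the filter, 1577 genes (4 members) passed in DC0, 1683 (5 members) in DC1 and 2935 (6 members) in DC2 over Fb, 50 in DC1 over DC0, 114 in DC2 over DC1 and 744 in DC2 over DC0. With library 9 and no block, Fst and Tgfbr1 gained a call in DC1 over Fb, and 59 genes passed in DC1 over DC0. With DESeq2, Tgfbr1 gained a call in DC2 over DC1. Libraries 1 to 7 alone gave 24 genes in DC2 over DC1 and 200 in DC2 over DC0. Leaving out each library gave 18 (without library 3) to 54 genes in DC2 over DC1 and 200 (without library 8) to 413 in DC2 over DC0. Of 40 shares of wells, 29 moved past their interval without thinning.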
